A study of Mus musculus with 9 samples.

Results

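Interferon-stimulated genes are the genes that a cell switches on when interferon reaches it, and 39 of them were followed here in the livers of mice after spaceflight. The members were a list of 39 mouse gene symbols, matched to the symbol that the deposited tables give for each gene ID and used where at least 10 counts were found in 3 or more libraries. All 39 met this rule, out of 34866 genes in the tables, of which 13193 had enough counts to be tested. The list holds 4 transcription factors, 4 sensors of viral nucleic acid, 4 IFIT proteins, 5 members of the OAS family, 4 genes of ISG15 conjugation and ubiquitin ligation, 8 GTPases, 2 PARP proteins and 8 other effectors.

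Interferons are secreted proteins that warn cells of infection. Type I and type III interferons bind receptors whose kinases phosphorylate STAT2, which joins IRF9 in a complex that binds the interferon-stimulated response element (ISRE) in promoters, whereas interferon gamma acts through the gamma-activated site (GAS). The products of the genes so induced sense, bind, cut or trap viral material, and several of them (*Irf7*, *Stat2*, *Irf9* and the sensors) belong to the signalling chain itself. Liver cells of many kinds carry these receptors, and in uninfected tissue the genes are read at a low tonic level.

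RNA came from liver homogenates of 9 wild-type male C57BL/6J mice, 3 in each of 3 groups, with 1 poly(A) RNA library per mouse. MG mice lived in microgravity on the International Space Station for 30 days, A1G mice spent the same 30 days there in cages centrifuged to an artificial 1 g, and GC mice were controls on Earth. All mice had been bought at 5 weeks of age. According to the study's methods, MG and A1G mice flew together and were dissected on Earth soon after landing, and the GC experiment was run months later at another site and at a lower CO2 concentration. Spaceflight, launch and landing, CO2, site and date therefore cannot be told apart in MG over GC or in A1G over GC, and these comparisons share the same GC libraries. MG over A1G compares mice of one flight, for which the methods give a somewhat higher CO2 concentration in the MG cages.

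The libraries held between 13189515 and 23738049 estimated counts, and Pearson's r of log2 CPM (counts scaled to library size) between mice of a group was 0.969 to 0.983. The labelled tissue, liver, was checked by 7 hepatocyte markers, which together held 66610 to 77510 CPM in each library. No library was left out. A1G replicate 1 stood apart from its group, since chi-square per gene between mice of a group, which is 1 for counting error alone, was 17.2 to 82.2 and highest for the pairs that hold it. GC replicate 1 stood apart to a lesser degree, with 48 and 64 for its pairs against 23.7 for GC replicates 2 and 3. The members and role groups in A1G over GC are given with and without A1G replicate 1.

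Of the 39 interferon-stimulated genes, 1 fell in the livers of MG mice against GC mice and none rose, by edgeR's quasi-likelihood test at an adjusted p under 0.05. That gene was *Bst2*, which encodes tetherin, the membrane protein that holds budding virus particles on the cell surface, and its level in MG mice was 0.463 times that in GC mice. Among all genes tested, 2.15% fell and 1.17% rose in this comparison. None of the 39 passed in A1G mice against GC mice, where 0.47% of all genes fell and 0.174% rose, and none passed in MG mice against A1G mice, where 0.0227% of all genes fell and 0.0531% rose. At an unadjusted p under 0.05, 6 members were lower and 1 was higher in MG mice against GC mice (10.2% and 8.23% of all genes), 3 were lower and 0 were higher in A1G mice against GC mice (7.61% and 6.61%), and 2 were lower and 1 was higher in MG mice against A1G mice (4.61% and 4.37%). DESeq2 called 4 members in MG against GC on 6 libraries and 4 on 9 (*Bst2*, *Oas1a* and *Ifi27* in both). It called 0 members in A1G against GC, and *Bst2* alone in MG against A1G. Limma on log2 TPM called *Bst2* alone in MG against GC and 0 members in the other comparisons. As shares of the 39 members the lower counts come to 15.4%, 7.69% and 5.13%, so those of the last 2 comparisons were near the background of all genes.

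The direction of the members was more even than the calls. The log2 fold change was below 0 for 30 of 39 members in MG over GC, with a median of -0.24, against 0.00 for all genes, of which 49.4% were below 0. In A1G over GC it was below 0 for 31 of 39, with a median of -0.28 against 0.00 for all genes, and in MG over A1G for 22 of 39, with a median of -0.03 against -0.01. The CPM of the 3 mice of each group did not overlap, with MG lower, for 10 members in MG against GC (25.6%, where 12% of all genes did so) and, with MG higher, for 1 (10.7% of all genes). In A1G against GC, 4 members did so with A1G lower (9.97% of all genes) and 0 with A1G higher (9.45%), and in MG against A1G, 2 with MG lower (7.8%) and 1 with MG higher (7.62%). When libraries were scaled by their total alone, the median of all genes moved to 0.14 in MG over GC and 0.18 in A1G over GC, and the members lay 0.23 and 0.28 below it, with 25 and 23 of 39 below 0. On log2(TPM + 1) the median of all genes moved to 0.24 in both. There 16 of the 36 members with enough TPM were below 0 in each comparison. Their medians were 0.04 and 0.06, which lay 0.20 and 0.18 below all genes. Red blood cell markers had the same sign as most members, and were not alone in this. In MG over GC, 9 of 11 markers of Kupffer cells (resident macrophages) and 4 of 5 of cholangiocytes (bile duct cells) were below 0. Of 7 markers of sinusoidal endothelium, 1 was below 0. All 5 erythroid markers were wholly lower in MG mice than in GC mice, with log2 fold changes between -1.09 and -0.62 (3 at an unadjusted p under 0.05, none passed). In A1G over GC they were between -0.62 and -0.11. The part of blood or of these other cells in the members' levels was not tested.

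**Figure D1:**
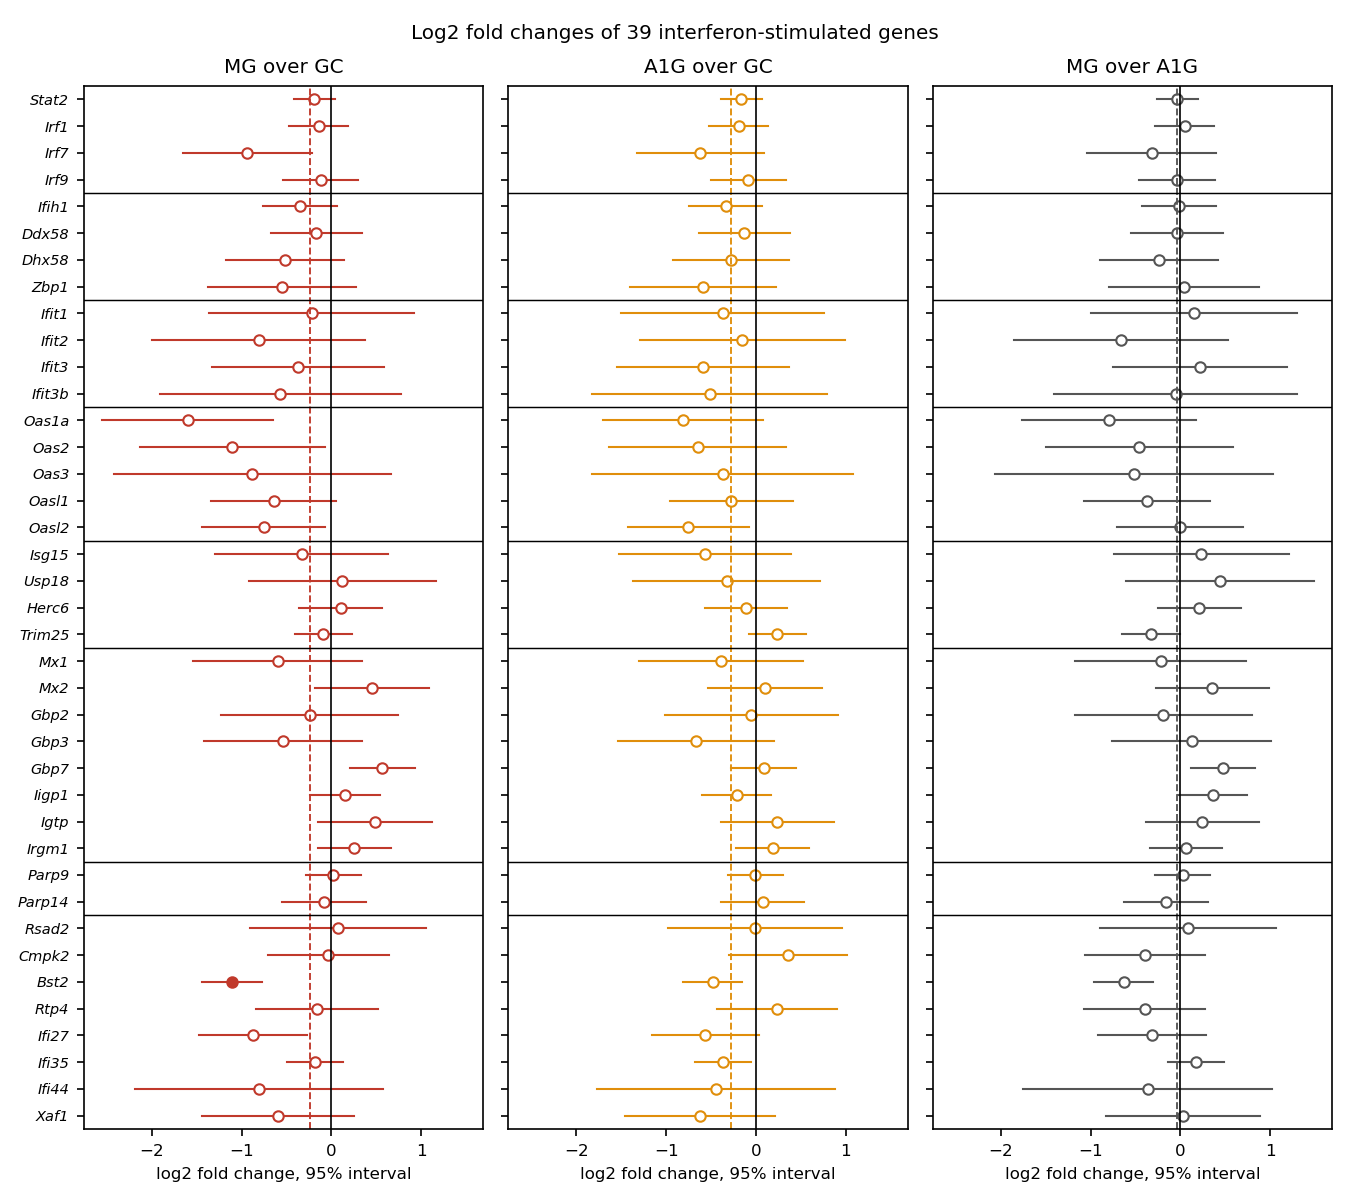
Log2 fold change (x axis) of each of the 39 genes (y axis, grouped by role with horizontal lines) in MG over GC, A1G over GC and MG over A1G, with bars for the 95% interval, a filled circle where the adjusted p was under 0.05 and a dashed line at the median of the members. *Bst2* in MG over GC, at -1.11, is the only filled circle, and 30, 31 and 22 of the 39 circles lie below 0.

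*Bst2* was the most abundant of the 39 genes per transcript length, at a mean of 197 TPM (scaled to transcript length and library size) over the 9 libraries. It had 54.1, 65.7 and 57.5 CPM in MG mice, 78.6, 94.2 and 102 CPM in A1G mice and 153, 124 and 105 CPM in GC mice (replicates 1 to 3). By CPM the 3 groups did not overlap, with MG lowest, A1G between and GC highest. By TPM the MG mice (127 to 149) stayed lowest, but the A1G mice (190 to 240) overlapped the GC mice (224 to 258). *Bst2* fell in MG mice against GC mice by a log2 fold change of -1.11 ± 0.15 (± standard error throughout, 95% interval -1.44 to -0.78, adjusted p = 0.00267 by edgeR). This call held in all 22 alternative analyses, with adjusted p between 1.38e-09 and 0.0204. The log2 fold change was -0.48 ± 0.15 in A1G over GC (edgeR adjusted p = 0.186) and -0.63 ± 0.15 in MG over A1G (edgeR adjusted p = 0.174), and neither passed. The difference between MG and A1G passed with DESeq2, on 6 libraries (adjusted p = 0.00364) and on 9 (adjusted p = 0.0162), and with edgeR without a filter on low counts (adjusted p = 0.0197), and over all alternatives the adjusted p ran from 0.00364 to 0.46.

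The gene lies on the minus strand at chr8:71534255-71537456 (GRCm38, GENCODE M21), overlaps no other annotated gene, and is known in mice as a surface marker of plasmacytoid dendritic cells as well as an interferon-stimulated gene of most tissues. Its promoter is shown because it carries both kinds of interferon-responsive letters beside each other. The stretch below, chr8:71537513-71537662 on the minus strand of GRCm38.p6, runs from base -190 to base -41 before the start site that RefSeq gives. Capitals mark a GAS match (TTCNNNGAA, bases -136 to -128) that runs into 2 overlapping ISRE matches (TTTCNNTTTC read on the opposite strand, bases -130 to -121 and -124 to -115).
Bst2: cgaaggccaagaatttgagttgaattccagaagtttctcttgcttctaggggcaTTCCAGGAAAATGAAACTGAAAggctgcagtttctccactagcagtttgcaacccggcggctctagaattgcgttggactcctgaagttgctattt
A match of letters is a description of the sequence and shows neither binding nor use of the site in these livers.

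In bulk liver, fewer cells of a type and less RNA per cell cannot be told apart. Markers of the cells that can carry *Bst2* were therefore measured beside it. The 3 markers of plasmacytoid dendritic cells summed to 1.21 to 1.47 CPM in MG mice, 1.84 to 3.22 CPM in A1G mice and 0.872 to 1.81 CPM in GC mice, and none of the 2 that could be tested passed in any comparison. *Siglech*, their defining marker, was at 0.231, 0.245 and 0.513 CPM in MG mice, 1.48, 1.56 and 0.92 CPM in A1G mice and 1.12, 0.413 and 0.293 CPM in GC mice. Its log2 fold change was -0.94 ± 0.63 in MG over GC and -2.02 ± 0.60 in MG over A1G (edgeR adjusted p = 0.464 and 0.268), both of the sign of *Bst2*, but 1.09 ± 0.54 in A1G over GC (edgeR adjusted p = 0.39), of the other sign. *Ccr9*, the other marker tested, was at 0.55 ± 0.49 in MG over GC and -0.20 ± 0.46 in MG over A1G. The 11 Kupffer cell markers, those of the resident macrophages of the liver, summed to 224 to 243.9 CPM in MG mice, 209.4 to 342.9 CPM in A1G mice and 236.1 to 328.5 CPM in GC mice. Of these 11, 9 had a log2 fold change below 0 in each of the 3 comparisons. In MG over GC their median was -0.29, within a range from -0.90 to 0.91. There 4 were wholly lower in MG mice and 0 wholly higher (12% and 10.7% of all genes). By the test, 1 of the 11 (*Folr2*, a folate receptor of macrophages) fell in MG mice against GC mice, by a log2 fold change of -0.90 ± 0.20 (edgeR adjusted p = 0.0295), and none passed in the other comparisons. *Cd4*, which marks T helper cells and is also read in some macrophages, fell as well, to 0.231, 0.294 and 0.147 CPM in MG mice against 1.47, 1.47 and 2.05 CPM in GC mice (edgeR adjusted p = 0.0212), and was the 1 of 11 T and NK cell markers to pass, of which 5 could be tested. The list had no common direction, since 3 of the 5 were below 0 in MG over GC. There *Cd3d* and *Trbc2*, parts of the T cell receptor complex, were at 1.23 ± 0.79 and 1.78 ± 0.88 without passing. In MG mice *Cd4* and *Siglech* were near the floor, since 0 counts allow up to 0.12 to 0.22 CPM in a library (counting error only). The 5 cholangiocyte markers, those of bile duct cells, had a median log2 fold change of -1.16 in MG over GC, with 4 below 0. Unadjusted, 3 of these had a p under 0.05, and none passed. In the other marker lists the genes that passed were *Tat*, a liver enzyme of tyrosine breakdown, and *Col1a1*, a collagen of stellate cells, both lower in MG mice than in GC mice (edgeR adjusted p = 0.0208 and 0.0258). Their lists were mixed, with 4 of 7 hepatocyte and 4 of 6 stellate markers below 0 in MG over GC, and *Cyp3a11* and *Lrat* at 0.40 ± 0.31 and 0.44 ± 0.23. Of 8 neutrophil markers, 0 had enough counts to be tested, and 1 (*Ly6g*) was at 0 in every library. Together the 8 summed to between 0.201 CPM (A1G replicate 2) and 1.83 CPM (MG replicate 3). The part of these cells in the *Bst2* result was not tested.

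**Figure D2:**
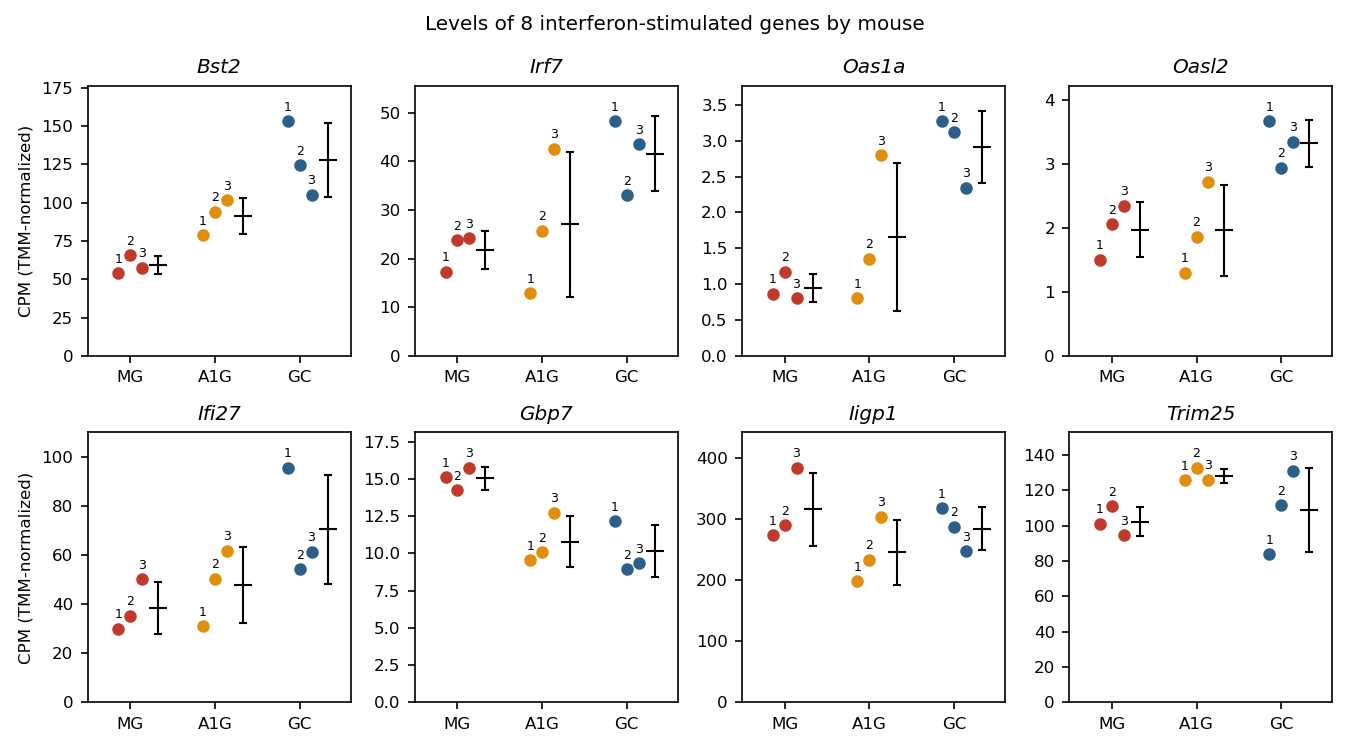
CPM (y axis, from 0) of 8 of the genes in each mouse of MG, A1G and GC (x axis). Coloured points are mice, numbered by replicate, and the black bar beside each group is the mean ± SD (n = 3); *Bst2* is separated between all 3 groups (54.1 to 65.7, 78.6 to 102 and 105 to 153 CPM), and *Gbp7* is highest in the 3 MG mice.

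Of the other 7 effectors without a common family, 6 had a log2 fold change below 0 in MG over GC, and none passed. Counting *Bst2*, 7 of 8 were below 0, but 6 with libraries scaled by their total alone and 4 on log2(TPM + 1). Under both of these scalings 7 of the 8 stayed below the median of all genes. Without GC replicate 1, 5 of the 8 were below 0. *Ifi27*, a small mitochondrial protein and the third most abundant member by TPM (mean 110 TPM), had 30.0, 35.3 and 50.3 CPM in MG mice, 31.2, 50.4 and 61.9 CPM in A1G mice and 95.7, 54.4 and 61.5 CPM in GC mice. By CPM the MG mice lay below all GC mice, and the A1G mice overlapped both. By TPM the MG mice (70.5 to 122) overlapped the GC mice (105 to 171) too. Its log2 fold change in MG over GC was -0.88 ± 0.28 (edgeR adjusted p = 0.112), which did not pass, though it did with DESeq2 on 6 libraries (adjusted p = 0.00278) and on 9 (adjusted p = 0.0196). *Rsad2* (viperin, which makes a nucleotide that stops viral RNA chains), *Cmpk2* (its neighbour on chromosome 12, a mitochondrial nucleotide kinase), *Rtp4*, *Ifi35*, *Ifi44* and *Xaf1* (an inhibitor of XIAP) had log2 fold changes between -0.80 and 0.07 in MG over GC and between -0.62 and 0.36 in A1G over GC, with no adjusted p under 0.05. *Ifi44*, singled out after its values were seen, had 0.924, 1.86 and 1.98 CPM in MG mice, 0.448, 1.11 and 4.48 CPM in A1G mice and 2.78, 2.75 and 2.76 CPM in GC mice, a coefficient of variation of 36.4%, 108% and 0.585%.

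The 4 transcription factors of the interferon response were all below 0 in both flight groups against GC mice, between -0.94 and -0.12 in MG over GC and between -0.62 and -0.08 in A1G over GC, and none passed. With libraries scaled by their total alone, 2 of the 4 were below 0 in each, though all 4 stayed below the median of all genes. On log2(TPM + 1), 1 was below 0 and 3 were below that median. *Irf7*, the factor that amplifies the production of type I interferon, had 17.3, 23.8 and 24.2 CPM in MG mice, 12.9, 25.7 and 42.5 CPM in A1G mice and 48.2, 33.1 and 43.4 CPM in GC mice. All MG mice were below all GC mice, whereas the A1G mice spread over the range of both. The log2 fold change of *Irf7* in MG over GC was -0.94 ± 0.33 (edgeR adjusted p = 0.154), and it became a call without A1G replicate 1 (edgeR adjusted p = 0.0272), a library of neither group compared. *Stat2*, a subunit of the factor that binds the ISRE, had 68.6, 73.1 and 74.8 CPM in MG mice, 70.4, 72.2 and 78.6 CPM in A1G mice and 88.1, 74.1 and 84.9 CPM in GC mice, with overlap between all groups and a log2 fold change in MG over GC of -0.19 ± 0.10 (edgeR adjusted p = 0.358). It varied least of the 4, with 4.45%, 5.83% and 8.96% of the mean between mice of the 3 groups. *Irf1*, which responds mainly to interferon gamma, and *Irf9*, the DNA-binding subunit beside STAT2, had log2 fold changes between -0.19 and 0.05 in the 3 comparisons.

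The 4 sensors were likewise all below 0 against GC mice, between -0.55 and -0.17 in MG over GC and between -0.59 and -0.13 in A1G over GC, and none passed. All 4 stayed below the median of all genes under every scaling run, while those below 0 came to 3 in MG over GC and 1 in A1G over GC on log2(TPM + 1). *Ifih1*, which encodes the long double-stranded RNA sensor MDA5, had 19.3, 17.2 and 23.5 CPM in MG mice, 14.0, 22.7 and 23.8 CPM in A1G mice and 26.0, 24.1 and 26.4 CPM in GC mice. By CPM both flight groups lay wholly below the GC mice and overlapped each other. By TPM all groups overlapped (5.47 to 6.82 in MG mice, 5.34 to 8.62 in A1G mice and 5.80 to 7.54 in GC mice). The log2 fold changes of *Ifih1* were -0.35 ± 0.19 in MG over GC and -0.34 ± 0.19 in A1G over GC (edgeR adjusted p = 0.348 and 0.438). *Dhx58*, which encodes LGP2, a regulator of the other RNA sensors, had 4.85, 5.19 and 8.94 CPM in MG mice, 5.02, 8.14 and 9.04 CPM in A1G mice and 11.3, 6.43 and 9.22 CPM in GC mice, with overlap between all groups (edgeR adjusted p = 0.394 in MG over GC). An antisense gene shares 2637 bases with *Dhx58*, and whether the authors' counting used strand is not given in the sources used here. *Ddx58* (RIG-I) and *Zbp1* (a sensor of Z-form nucleic acid) had adjusted p of at least 0.479 by edgeR in every comparison.

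The IFIT proteins, which bind foreign RNA and block its translation, had by median the largest standard errors of the role groups in MG over GC (0.44 to 0.61). Their 4 genes stand in one cluster, chr19:34550694-34650009 (GRCm38), and their log2 fold changes were between -0.81 and -0.22 in MG over GC and between -0.59 and -0.15 in A1G over GC, below the median of all genes under every scaling run (3 of 4 below 0 on log2(TPM + 1) in each). *Ifit3* had 4.56, 7.15 and 10.04 CPM in MG mice, 2.29, 6.58 and 9.68 CPM in A1G mice and 12.8, 8.59 and 6.57 CPM in GC mice. *Ifit2* had 1.10, 3.43 and 1.03 CPM in MG mice, 1.34, 2.31 and 5.28 CPM in A1G mice and 3.66, 3.99 and 2.29 CPM in GC mice. The groups overlapped for all 4 genes, and even for *Ifit3*, the gene of smallest error among them, the 95% interval in MG over GC ran from -1.33 to 0.59. *Ifit3* and *Ifit3b* share 1663 of 1697 aligned transcript bases (98%), so reads could be split between them in either direction, and their separate values are uncertain.

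Windows from the promoters of 3 of the 4 IFIT genes are shown with those of 3 other members, to let the shared letters be seen beside the values. No ISRE letters were found in the promoters of *Ifit2*, the remaining IFIT gene. Capitals mark matches to the ISRE in either direction, each with 15 bases of flank, in windows that lie before the RefSeq start site.
Ifit1: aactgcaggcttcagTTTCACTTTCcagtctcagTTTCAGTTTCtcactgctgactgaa
Ifit3: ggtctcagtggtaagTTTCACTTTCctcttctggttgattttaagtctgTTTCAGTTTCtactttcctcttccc
Ifit3b: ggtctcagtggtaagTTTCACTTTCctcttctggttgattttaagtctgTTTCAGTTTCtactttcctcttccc
Isg15: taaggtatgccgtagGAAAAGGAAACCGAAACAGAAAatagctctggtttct
Gbp7: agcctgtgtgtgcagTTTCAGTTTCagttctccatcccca
Stat2: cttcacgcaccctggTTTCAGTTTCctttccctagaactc
In GRCm38.p6 the windows are chr19:34640770-34640828, chr19:34583358-34583431 and chr19:34607754-34607827 on the plus strand for *Ifit1*, *Ifit3* and *Ifit3b*, chr4:156200860-156200911 on the minus strand for *Isg15*, and chr3:142530268-142530307 and chr10:128270261-128270300 on the plus strand for *Gbp7* and *Stat2*. *Ifit3* and *Ifit3b* carry the same 74 bases. *Isg15* holds 3 overlapping matches, *Ifit1*, *Ifit3* and *Ifit3b* hold 2 each, and *Gbp7* and *Stat2* hold 1 each.

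RefSeq promoters of 300 bases (250 before and 50 after the start) were at hand for 28 of the 39 members. The ISRE letters TTTCNNTTTC, read on both strands, were found in 16 of these 28 (57.1%), against 3.99% of 27025 genes with a promoter in the same table. The GAS letters TTCNNNGAA, which read the same on both strands, were found in 7 of 28 (25%), against 9.55% of genes, and 4 members held both. The 16 members with an ISRE match had a median log2 fold change of -0.29 in MG over GC and -0.35 in A1G over GC, against -0.39 and -0.23 for the 12 without one. In MG over A1G the median was 0.03 with a match and -0.18 without one. These differences between the sets were not tested. The 11 members without an entry were *Parp14*, *Mx2*, *Mx1*, *Usp18*, *Ifi27*, *Iigp1*, *Rtp4*, *Zbp1*, *Oas2*, *Parp9* and *Dhx58*.

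The OAS family is named for enzymes that make the oligoadenylates that switch on RNase L. It had the lowest median of the role groups, -0.88 in MG over GC and -0.65 in A1G over GC. All 5 of its genes were below 0 in all 3 comparisons, between -1.60 and -0.64 in MG over GC, and none passed. They were below 0 under every scaling run, counting the 3 genes with enough TPM on log2(TPM + 1). In MG over A1G this rested on single libraries. There 3 of the 5 were below 0 without A1G replicate 3 (median -0.0025), and 4 of the 5 without MG replicate 1. *Oas1a* had 0.866, 1.18 and 0.806 CPM in MG mice, 0.807, 1.36 and 2.80 CPM in A1G mice and 3.27, 3.12 and 2.35 CPM in GC mice. The MG mice lay wholly below the GC mice, with a log2 fold change of -1.60 ± 0.44 (edgeR adjusted p = 0.0726), the largest of any member in size. It was a call with DESeq2 on 6 libraries (adjusted p = 0.00367) and on 9 (adjusted p = 0.0133), with edgeR on only the 6 libraries compared (adjusted p = 0.0238), and with edgeR without A1G replicate 1 (adjusted p = 0.029) or A1G replicate 3 (adjusted p = 0.0371). These levels were low, from 11 counts in a library for *Oas1a* and from 6 for *Oas3*, the least abundant member at a mean of 0.33 TPM. *Oasl2*, an oligoadenylate synthetase-like gene, had 1.502, 2.06 and 2.35 CPM in MG mice, 1.30, 1.86 and 2.72 CPM in A1G mice and 3.66, 2.94 and 3.35 CPM in GC mice. By CPM both flight groups lay wholly below the GC mice. By TPM the A1G mice (1.09 to 1.71) overlapped the GC mice (1.59 to 3.54). Its log2 fold change was -0.76 ± 0.31 in MG over GC and -0.75 ± 0.31 in A1G over GC (edgeR adjusted p = 0.226 and 0.301), and -0.00 ± 0.32 in MG over A1G. *Oas1a*, *Oas2* and *Oas3* lie within chr5:120730333-120907521 and *Oasl1* and *Oasl2* within chr5:114896936-114937915 (GRCm38).

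**Figure D3:**
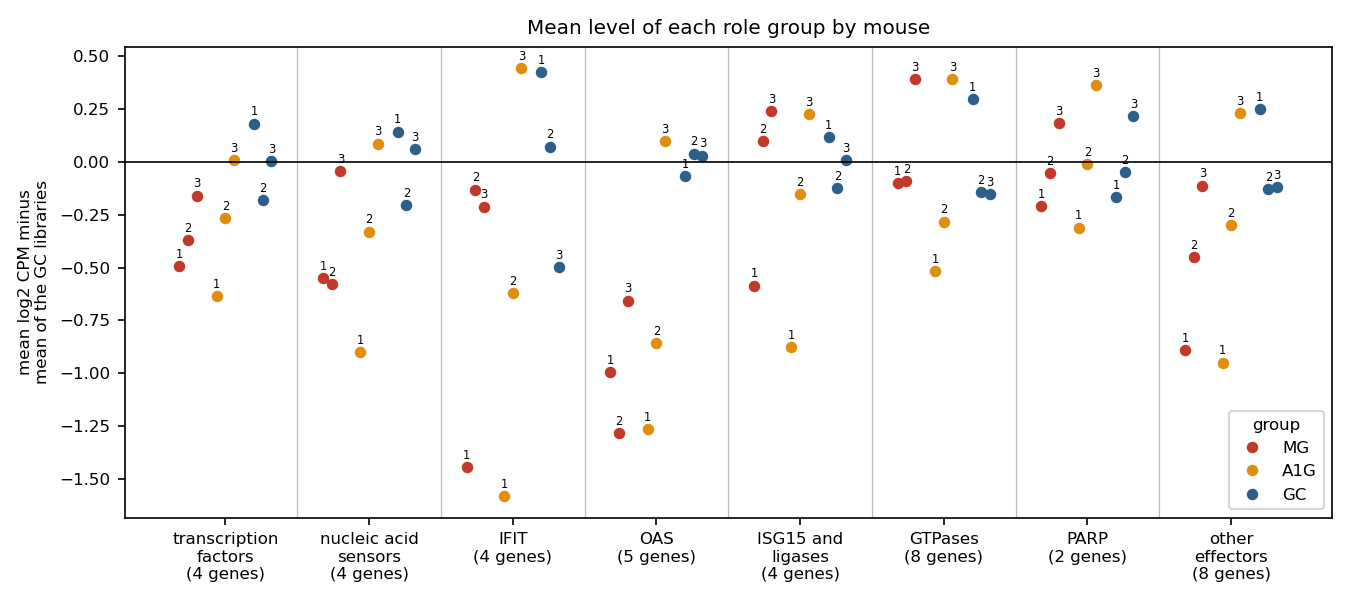
Mean log2 CPM of the genes of each role group (x axis) in each mouse, minus the mean of the 3 GC libraries (y axis). Points are mice, numbered by replicate and coloured by group; in the OAS family the MG mice lie between -1.28 and -0.66 and the GC mice between -0.07 and 0.04, while A1G replicates 1 to 3 lie at -1.26, -0.86 and 0.10.

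The genes of ISG15 conjugation were not on one side. *Isg15*, a ubiquitin-like protein that is attached to other proteins, had 2.31, 4.11 and 6.16 CPM in MG mice, 1.34, 3.82 and 5.40 CPM in A1G mice and 5.96, 4.32 and 5.46 CPM in GC mice, and the groups overlapped (log2 fold change -0.33 ± 0.44 in MG over GC, edgeR adjusted p = 0.747). *Usp18*, which removes ISG15 and dampens the type I receptor, and *Herc6*, the main ligase for ISG15 in mice, had log2 fold changes of 0.12 ± 0.48 and 0.11 ± 0.21 in MG over GC. *Trim25*, a ubiquitin ligase that works with RIG-I, had 101, 111 and 94.7 CPM in MG mice, 126, 133 and 126 CPM in A1G mice and 84.0, 111 and 131 CPM in GC mice. The A1G mice lay wholly above the MG mice, with a log2 fold change of -0.33 ± 0.15 in MG over A1G (edgeR adjusted p = 0.537), while the GC mice spanned both.

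The GTPases were the role group with the highest median in MG over GC, 0.20, and 5 of the 8 were above 0 under every count scaling run. In A1G over GC their median was 0.02, with 4 of 8 above 0, and it was -0.0015 with upper quartile scaling. *Gbp7*, a guanylate-binding protein of the cluster chr3:142530342-142638008 that also holds *Gbp2* and *Gbp3*, had 15.1, 14.3 and 15.8 CPM in MG mice, 9.55, 10.1 and 12.7 CPM in A1G mice and 12.2, 8.95 and 9.33 CPM in GC mice. The 3 MG mice lay above all other mice, with a log2 fold change of 0.57 ± 0.17 in MG over GC and 0.48 ± 0.16 in MG over A1G (edgeR adjusted p = 0.091 and 0.352). Neither passed. It was the one member that other settings called higher, in MG over GC, with libraries scaled by their total alone (edgeR adjusted p = 0.031) and with DESeq2 on 9 libraries (adjusted p = 0.0453). *Gbp2* and *Gbp3*, which attack the vacuoles of intracellular microbes, had log2 fold changes of -0.24 ± 0.45 and -0.54 ± 0.40 in MG over GC.

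*Iigp1*, an immunity-related GTPase and the second member by TPM (mean 119 TPM), had 273, 290 and 384 CPM in MG mice, 199, 234 and 304 CPM in A1G mice and 318, 288 and 248 CPM in GC mice. *Irgm1*, which regulates the other immunity-related GTPases, had 38.6, 54.9 and 59.7 CPM in MG mice, 38.4, 48.0 and 59.9 CPM in A1G mice and 48.2, 39.9 and 40.3 CPM in GC mice. The groups overlapped for both genes, with log2 fold changes in MG over GC of 0.15 ± 0.18 and 0.25 ± 0.19 (edgeR adjusted p = 0.705 and 0.51). *Igtp*, of the same family, had 0.49 ± 0.29 in MG over GC, but shares 7974 bases on the same strand with its neighbour *Irgm2*, so that reads could be split between them. *Mx1* and *Mx2*, dynamin-like proteins that block viral replication, had -0.60 ± 0.43 and 0.46 ± 0.29. In C57BL/6 mice the *Mx1* allele is known to be defective, and *Mx2* is annotated as a polymorphic pseudogene.

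The PARP genes had log2 fold changes between -0.15 and 0.07 in the 3 comparisons, and none passed. *Parp9*, which works with the ligase DTX3L, had 44.2, 48.2 and 57.3 CPM in MG mice, 42.2, 47.5 and 57.0 CPM in A1G mice and 46.3, 46.3 and 54.8 CPM in GC mice, with log2 fold changes of 0.02 ± 0.14 in MG over GC and -0.01 ± 0.14 in A1G over GC. *Parp14*, an ADP-ribosyltransferase, had 23.9, 27.3 and 31.8 CPM in MG mice, 21.7, 29.3 and 41.1 CPM in A1G mice and 24.2, 28.6 and 34.8 CPM in GC mice, and all groups overlapped. The 95% interval of *Parp9* in MG over GC ran from -0.29 to 0.33.

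The members varied together between mice of the same group. Each library's deviation from its group mean was taken for every gene, and the correlation of a member with the mean of the other members over the 9 libraries had a median of 0.846, with 33 of 39 members above 0.5. For the 13154 other genes tested, the median correlation with the mean of the members was 0.0128, and 14.5% were above 0.5. The libraries of this description are those of the comparisons, and no test was made of it. It was closest to 1 for *Oasl2* (0.98), *Oasl1* (0.97) and *Cmpk2* (0.97), lower for *Bst2* (0.63), and below 0 only for *Trim25* (-0.29).

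This shared variation was largest in A1G mice. The mean log2 CPM of the 39 genes, relative to the mean of the GC libraries, was -0.66, -0.38 and -0.04 in MG replicates 1 to 3, -0.89, -0.37 and 0.24 in A1G replicates 1 to 3 and 0.18, -0.10 and -0.09 in GC replicates 1 to 3. A1G replicate 1 was the lowest of all 9 libraries for 20 of the 39 genes (51.3%, where 13.4% of all genes tested had their lowest level there), and A1G replicate 3 was the highest of its group for 37. Without A1G replicate 1 the median of the members in A1G over GC was -0.05, with 20 of 39 below 0, and in MG over A1G it was -0.23, with 31 below 0. Without A1G replicate 3 the medians were -0.53 and 0.17. GC replicate 1 was the highest of all 9 libraries for 18 of the 39 genes (16% of all genes tested), and without it the median in A1G over GC was -0.12. In MG over A1G the median was 0.05 without MG replicate 1 and -0.27 without MG replicate 3. The role groups in A1G over GC moved too. Without A1G replicate 1 the medians there were -0.15 for the transcription factors (3 of 4 below 0), -0.09 for the sensors (3 of 4) and -0.06 for the IFIT genes (2 of 4). They were -0.30 for the OAS family (4 of 5), 0.04 for ISG15 conjugation (1 of 4), 0.20 for the GTPases (3 of 8), 0.19 for the PARP genes (0 of 2) and -0.13 for the other effectors (4 of 8). Without A1G replicate 3 the same medians lay between -1.06 and -0.15. In MG over GC the median stayed between -0.50 and -0.12 over the 9 analyses that left out 1 library each. The members below 0 there ran from 26 of 39 without GC replicate 1 to 35 without MG replicate 3. The same 2 libraries with the lowest members, A1G replicate 1 and MG replicate 1, also had the lowest sums of 5 erythroid markers, 142 CPM in MG replicate 1 and 113 CPM in A1G replicate 1, against 190 to 417 CPM in the other 7. Those 7 did not keep this order. The highest sum, 417 CPM, was in A1G replicate 2, where the members' mean was -0.37. The lowest of the 7, 190 CPM, was in MG replicate 3, where the members' mean was -0.04. The part of blood in the members' levels of these libraries was not tested.

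**Figure D4:**
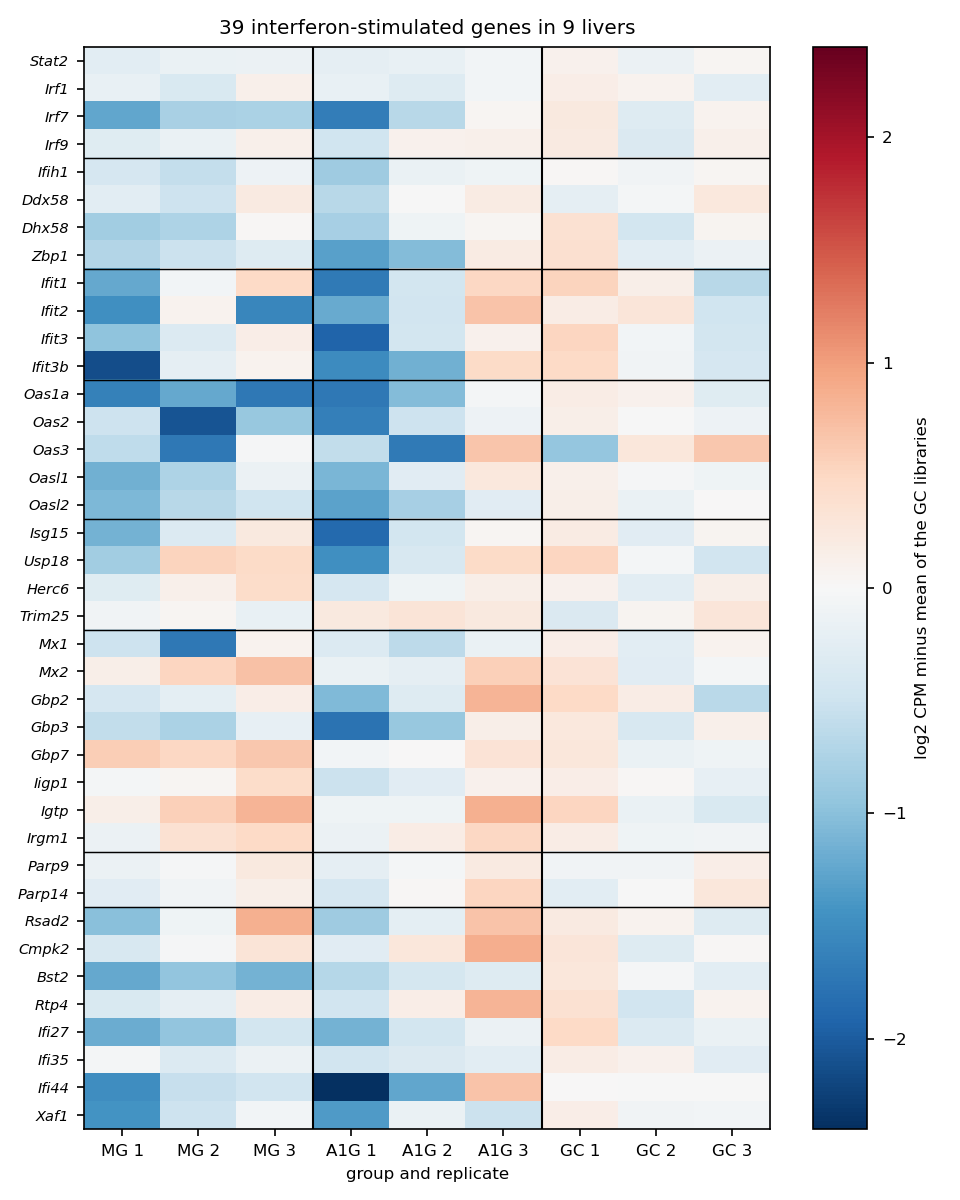
Log2 CPM of each of the 39 genes (y axis, grouped by role) in each mouse (x axis, MG, A1G and GC replicates 1 to 3), minus the mean of the GC libraries, on a scale in which blue is lower and red is higher. A1G 1 and MG 1 form the bluest columns, with means of -0.89 and -0.66, and the rows of the GTPases *Gbp7*, *Igtp* and *Mx2* are red in MG.

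Upstream of these genes, the interferons themselves were hardly read. Of 10 interferon genes, 8 (*Ifna1*, *Ifna2*, *Ifna4*, *Ifna5*, *Ifnb1*, *Ifnl2*, *Ifnl3* and *Ifne*) had 0 counts in all 9 libraries, which allows up to 0.12 to 0.22 CPM in a library, counting error only. *Ifng* had 6 counts in all and *Ifnk* had 8. Of 10 genes of receptors, their kinases and *Stat3*, 9 could be tested and none passed in any comparison by edgeR, with log2 fold changes between -0.35 and 0.27 in MG over GC. At an unadjusted p under 0.05, 1 was higher in MG over GC (8.23% of all genes) and 1 in MG over A1G (4.37%). In no comparison were any lower, where 4.61% to 10.2% of all genes were. *Ifnar1*, a chain of the type I receptor, had 38.5, 43.2 and 41.5 CPM in MG mice, 40.4, 36.8 and 36.9 CPM in A1G mice and 31.2, 37.6 and 33.5 CPM in GC mice. Its log2 fold change in MG over GC was 0.27 ± 0.11 (edgeR adjusted p = 0.216), in the direction opposite to most members. *Stat3* was at 0.40 ± 0.18 in MG over A1G (edgeR adjusted p = 0.553).

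Of 15 tested genes that lead to interferon production and 9 that restrain the response, none passed by edgeR in any comparison. *Traf6*, an adaptor ligase below several receptors, had the smallest p of the first list (0.47 ± 0.15 in MG over GC, edgeR adjusted p = 0.122), and *Tlr3*, which senses double-stranded RNA in endosomes, was at -0.71 ± 0.24 in MG over A1G (edgeR adjusted p = 0.352). *Pias1*, a SUMO ligase, and *Ptpn11*, a phosphatase, were at 0.44 ± 0.16 and 0.31 ± 0.14 in MG over GC (edgeR adjusted p = 0.168 and 0.252). At an unadjusted p under 0.05 the 2 lists together had 3 genes higher and 1 lower in MG over GC (8.23% and 10.2% of all genes). They had 3 higher and 1 lower in A1G over GC (6.61% and 7.61%), and 0 higher and 2 lower in MG over A1G (4.37% and 4.61%).

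A further 56 interferon-stimulated genes outside the 39 could be tested, and none passed by edgeR in any comparison. At an unadjusted p under 0.05, 8 were lower and 0 were higher in MG over GC (10.2% and 8.23% of all genes), with a median log2 fold change of -0.16. In A1G over GC, 5 were lower and 2 were higher (7.61% and 6.61% of all genes), with a median of 0.01. In MG over A1G, 3 were lower and 0 were higher (4.61% and 4.37% of all genes), with a median of -0.08. *Ifitm3*, a membrane protein that stops viruses from fusing, had 137, 146 and 164 CPM in MG mice, 87.5, 177 and 190 CPM in A1G mice and 344, 290 and 233 CPM in GC mice. Both flight groups lay wholly below the GC mice by CPM. The log2 fold changes of *Ifitm3* were -0.96 ± 0.24 in MG over GC and -0.94 ± 0.24 in A1G over GC (edgeR adjusted p = 0.0578 and 0.125). *Tor3a*, an interferon-responsive ATPase of the endoplasmic reticulum, had 6.47, 7.25 and 9.75 CPM in MG mice, 12.2, 13.9 and 11.3 CPM in A1G mice and 7.82, 9.18 and 6.81 CPM in GC mice, highest in the 3 A1G mice (log2 fold change 0.65 ± 0.19 in A1G over GC, edgeR adjusted p = 0.158).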

How the data were processed

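Poly(A) RNA from 9 livers was made into directional libraries and sequenced on a NovaSeq instrument. Per the submitters' processing notes, reads were filtered with fastp 0.19.4 and quantified with Salmon 0.9.1 on GRCm38, and the authors deposited estimated counts for each gene (17.1% of values not whole). The authors also deposited TPM, scaled to transcript length and to the same total in every library. The annotation release is not given in the sources used here. The authors' tables of DESeq2 results (fold changes and p-values) were used only to pair IDs with symbols. No per-sample column lacked a sample (0).

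Counts were rounded, filtered with filterByExpr (minimum count 10), scaled by TMM and fitted for all 9 libraries with 1 coefficient per group in edgeR 4.0.16 (R 4.3.3), with the quasi-likelihood F test and Benjamini-Hochberg adjustment over 13193 genes. The filter kept 99.9% of counts. CPM were computed with TMM factors, with a prior count of 2 on the log2 scale. A standard error is the size of the unshrunk log2 fold change over the square root of F. Each mouse is 1 replicate. Intervals cover the spread between mice, and limits for 0 counts (3 counts) cover counting error only. The procedure was tested on simulated data.

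The members, role groups, other lists and markers were chosen with earlier results of these data known, and 1 gene of the other lists is not reported here. Genes were named where called, as the 2 of smallest p in each role group or pathway list, or as the 5 of highest mean TPM. Marker genes are given by list, with those called, and the others named were singled out after their values were seen. Alternatives were other scalings, other filters, DESeq2 1.42.0, limma 3.58.1 on log2(TPM + 1) or log2(TPM + 0.1) (at least 1 TPM, or unfiltered), a fit of the 6 compared libraries alone, robust empirical Bayes, a replicate block, and leaving out 1 library at a time. Sequences are from RefSeq (GRCm38.p6), with gene positions from GENCODE M21.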

Additional observations from a re-analysis of the deposited data

How the results depend on the processing

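Across 22 alternatives, 1104 of 1122 values of the 17 named members kept their side of the threshold and their direction where called. The other 18 became calls, and 75 uncalled values had the other sign, in 23 results. The single called member, *Bst2* in MG over GC, held throughout. Members that fell in MG over GC were 1 in the reported analysis, but 4 without the low-count filter and 4 with DESeq2 on 6 libraries (*Irf7*, *Oas1a*, *Bst2* and *Ifi27* in both), 3 with DESeq2 on 9 libraries (*Oas1a*, *Bst2* and *Ifi27*) and 3 with only the 6 libraries compared (*Irf7*, *Oas1a* and *Bst2*). They were 1 to 3 when 1 library was left out, with 3 without A1G replicate 1 and 2 without A1G replicate 3. Members that rose were 1 (*Gbp7*) with library size only and 1 with DESeq2 on 9 libraries, against 0. In MG over A1G, *Bst2* was the 1 member lower without a filter and with DESeq2 on 6 or 9 libraries, against 0. The cause of these changes was not tested.

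Counts over all genes moved more. In MG over GC they were 439, but 803 without a filter, 858 and 887 with DESeq2 on 6 and 9 libraries, 261 with limma on log2(TPM + 1) without a filter, and 181 to 642 with 1 library left out. In A1G over GC they were 85, but 384, 336, 412 and 1 under the same settings, 51 with only the 6 libraries compared, and 4 to 204 with 1 library left out. In MG over A1G they were 10, but 188, 174, 185 and 0 under the same settings, 1 with library size only, 2 and 0 with limma on log2(TPM + 1) and log2(TPM + 0.1), 0 with only the 6 libraries compared, 34 with robust empirical Bayes, and 0 to 48 with 1 library left out. The share of calls that were higher was 35.3% in MG over GC and 27.1% in A1G over GC, but 64.6% and 65.8% with library size only and 81.2% and 67.5% with limma on log2(TPM + 1).

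The replicate numbers mark separate mice. Same-numbered libraries correlated by only -0.00818 to 0.114 in their deviations from group means, so the numbers were not used as pairs, although 5 of 9 libraries correlated best with their own number in both other groups, a hint of pairing from the data and not from the design. With a replicate block the calls were 145 in A1G over GC and 44 in MG over A1G, and the members called stayed at *Bst2* alone in MG over GC. The members' medians with the block were -0.36 in MG over GC, -0.36 in A1G over GC and 0.00 in MG over A1G.

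Depth limits the lowest members, of which *Oas3* had as few as 6 counts in a library and *Ifit3b* 8. With 3 mice per group, a typical member had to differ by more than about 0.67 on the log2 scale for its interval to leave out 0.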
